A study of Homo sapiens with 6 samples.

Results

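The genes examined here encode the subunits of the replicative DNA polymerases and of primase, in thyroid cancer cells in which GDF15 was knocked down. The members are POLA1, POLA2, PRIM1 and PRIM2 of the polymerase alpha-primase complex, POLD1, POLD2, POLD3 and POLD4 of polymerase delta, and POLE and POLE2 of polymerase epsilon. They were taken from the expression table by gene name, and all 10 were found among its 34738 genes. All 10 also had a mean level of at least 1 FPKM over the 6 libraries, the filter that left 11867 genes for testing. FPKM counts sequenced fragments relative to a length set for each gene and to the size of the library. Comparisons of level between genes therefore depend on that length, which was not checked here. POLD2, for example, held more counts than POLD1 in every NC library at a lower FPKM, though its longest annotated transcript is shorter (2158 against 3517 bases).

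RNA of 3 cultures transfected with an siRNA against GDF15 (siGDF15) was compared with RNA of 3 control cultures (NC). GDF15 encodes a secreted stress-responsive cytokine of the TGF-beta superfamily. The siRNA was delivered as lipid complexes (Lipofectamine), and the interval between transfection and harvest is not given in the sources used here. The labels name KHM-5M, a human thyroid cancer line, for every library, while a figure legend of the study names TPC-1, another thyroid cancer line, and the line was not settled here. The control is called negative control in the study's methods, which also list a negative control siRNA, but vector control in a legend and blank control in the deposited design. Therefore an effect of transfection and an effect of GDF15 loss cannot be told apart if the NC cells received no siRNA. The study lists no further siRNA against GDF15. In either case, an effect of this siRNA on other genes and an effect of GDF15 loss cannot be told apart. The study calls the 3 samples of a group biological replicates. Poly(A) RNA was sequenced as read pairs, so transcripts without a poly(A) tail are not represented.

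DNA replication starts with the alpha-primase complex, in which primase lays down a short RNA primer and polymerase alpha extends it with DNA. Polymerase epsilon then carries synthesis on the leading strand, and polymerase delta, held by the ring-shaped clamp PCNA, carries it on the lagging strand, where each Okazaki fragment needs its own primer. Genes of this machinery are known for transcription that rises before S phase in dividing cells, under control of E2F transcription factors, and for low levels in cells that have left the cell cycle. The smallest subunit of polymerase delta, POLD4 (p12), is known as the subunit that is degraded in S phase and after DNA damage, leaving a trimeric form of the enzyme.

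Promoter windows from 250 bases before to 50 bases after the transcription start were taken from RefSeq (GRCh38.p14) for 9 of the 10 members. POLD3 was not among them. The windows were searched on both strands for 4 words of the E2F type, TTTCCCGC, TTTCGCGC, TTTGCCGC and TTTGGCGC. Such a word was found in POLA1, POLA2, POLE and POLE2, which is 4 of 9 member genes, against 3.99% of the 27305 genes with a window. By window, it was 4 of 12 against 3.31% of 35116. Such a word also stood in 13 of the 33 other replication fork genes with a window, though as only 33 of those 44 genes had a window, under the 80% set as a minimum, that share is void as a check. The windows of the members held 61 to 74.7% GC except in PRIM2 (38.3 and 53%), against a median of 58.7% over all windows, and the part of GC content in these counts was not tested. The stretches around these words are shown because these 4 genes belong to the members that fell after GDF15 knockdown, together with the stretch before the start of POLD4, which was the member that rose and held none of the 4 words. Sequences are written 5′ to 3′ on the strand of the gene, with the E2F-type word in capitals and, in POLD4, the CCAAT box read on the opposite strand (ATTGG) in capitals.
POLA1, chrX:24693755-24693814, plus strand: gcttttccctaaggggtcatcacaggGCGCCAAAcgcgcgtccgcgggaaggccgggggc
POLA2, chr11:65261883-65261942, plus strand: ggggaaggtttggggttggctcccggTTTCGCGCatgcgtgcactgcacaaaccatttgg
POLE, chr12:132687340-132687386, minus strand: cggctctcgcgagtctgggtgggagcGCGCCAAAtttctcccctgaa
POLE2, chr14:49688212-49688245, minus strand: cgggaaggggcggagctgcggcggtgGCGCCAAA
POLD4, chr11:67353597-67353666, minus strand: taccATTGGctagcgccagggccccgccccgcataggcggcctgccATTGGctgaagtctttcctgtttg

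In POLA1, POLE and POLE2 the word was the same, GCGCCAAA on the gene's strand, which is TTTGGCGC on the other strand. Counted from the start site, the word began at base -137 in POLA1, -53 in POLA2, -18 in POLE and -5 in POLE2. None of these 4 words overlapped a CCAAT or GC box. The CCAAT box (CCAAT) was found in 6 of the 12 member windows, 2 of them of POLD4, and in 34.6% of all windows. By gene it was in 5 of 9, POLA1, PRIM1, POLD2, POLD4 and POLE, and thus not particular to POLD4. The GC box (GGGCGG) was found in 7 of the 12 and in 45% of all windows. The CHR words TTTGAA or TTTAAA were found in 1 of the 12, in PRIM2, and in 24% of all windows. PRIM1, POLD1, POLD2 and PRIM2 also fell and held no E2F-type word in these windows. A match is a description of letters and not a bound site, and its absence says only that the letters are not in the window.

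GDF15 itself was measured at 22.4, 19.3 and 23.1 FPKM in NC and at 10.8, 10.5 and 10.7 FPKM in siGDF15. The groups did not overlap, and GDF15 fell by 0.92 on the log2 scale (SE 0.079, edgeR quasi-likelihood test, adjusted p = 2.4e-05). Total counts were between 67569576 and 68025163 in 5 libraries and 51738814 in siGDF15 replicate 2. Counts were estimated by the authors from coverage and were not a tally of reads. Mitochondrially encoded genes held 6.39 to 6.78% of counts in NC and 8.53 to 9.17% in siGDF15, and the part of this difference in the results was not tested. The thyroid factor PAX8 was expressed at 59.1 FPKM in NC, whereas TG, SLC5A5, SLC26A4, DIO1, DUOX2 and NKX2-1, which are markers of differentiated thyroid cells, were all under 0.25 FPKM, with SLC5A5 at 0 in every NC library. The summed level of the 3 thyroid markers that were tested, PAX8, FOXE1 and HHEX, was 61.4 to 71.8 FPKM in NC and 82.8 to 86.0 FPKM in siGDF15, and of these PAX8 rose and HHEX fell. PTPRC, CD3E, LYZ and the 4 endothelial markers were at or near 0, and CD68 was at 18.3 FPKM in NC and 16.9 FPKM in siGDF15. The summed epithelial markers were at 101.5 to 148.5 FPKM in NC and 125.6 to 135.6 FPKM in siGDF15, and the 5 tested fibroblast markers overlapped between groups in their sum, at 29.7 to 38.9 FPKM in NC and 31.1 to 36.6 FPKM in siGDF15. Among the 5 epithelial markers only CDH1 had an adjusted p under 0.05 (log2 fold change 0.61, edgeR adjusted p = 0.049), though its libraries overlapped between groups.

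After GDF15 knockdown, 9 of the 10 polymerase and primase genes fell and POLD4 rose. The 4 subunit genes of alpha-primase had log2 fold changes of -1.67 to -1.10 and the 2 of polymerase epsilon -1.60 and -1.28. In polymerase delta the catalytic subunit POLD1 was at -1.37, the clamp-binding subunit POLD3 at -1.39 and the accessory subunit POLD2 at -0.54, while POLD4 was at 0.90. The 10 genes together summed to 99.4, 99.6 and 102.7 FPKM in NC and to 53.3, 52.7 and 51.0 FPKM in siGDF15. Because the RNA came from whole cultures, fewer cells in S phase and less RNA per cell cannot be told apart.

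A gene was called lower or higher when its edgeR p-value, adjusted by the Benjamini-Hochberg method over the 11867 genes, was under 0.05. By this rule 9 members were lower, where 31.4% of all tested genes were lower, and 1 member was higher, where 30.0% of all tested genes were higher. The study added a fold limit, a log2 fold change no smaller than 1 in either direction. With it, 8 members were lower against 4.78% of tested genes, and 0 members were higher against 3.03%. The members were chosen with earlier results of these data known, so these shares are a description and not a test. POLD2 and POLD4 passed the test and missed the fold limit, as did GDF15, the target of the siRNA (log2 fold change -0.92). In all 10 members the 3 siGDF15 libraries lay on one side of the 3 NC libraries, 9 below them and 1 above, and 42.8% of tested genes lay wholly below and 25.6% wholly above. These shares rest on FPKM, without the TMM scaling of the edgeR fit. In edgeR without TMM, 4679 genes were lower and 2701 higher, against 3721 and 3565 with it. The part of scaling in the shares was not tested. An exact permutation test over libraries, two-sided, gave p = 0.1 for each member, the smallest value that 3 against 3 allows. The median log2 fold change of the members was -1.35, that of all tested genes was 0.0026, and their 5th and 95th percentiles were -0.99 and 0.83.

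**Figure D1:**
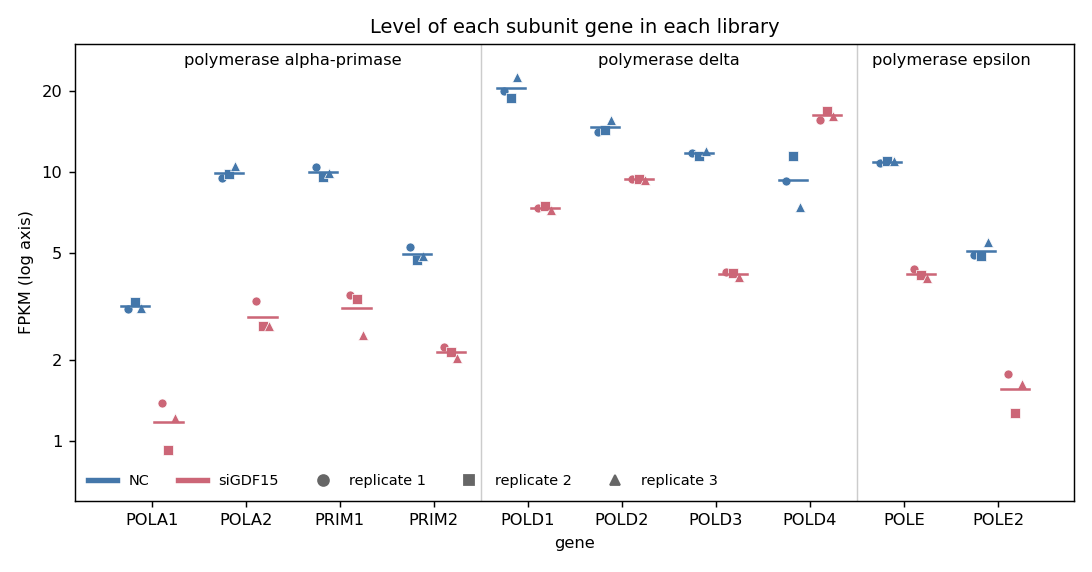
Level of each subunit gene in FPKM (log axis) in each of the 6 libraries, with NC in blue and siGDF15 in red, a symbol for each replicate number and a horizontal line at each group mean. In 9 genes the siGDF15 points lie below all NC points, and in POLD4 they lie above, at 15.7 to 16.9 FPKM against 7.41 to 11.5 FPKM.

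The alpha-primase complex has a catalytic polymerase subunit, POLA1 (ENSG00000101868, GRCh38 chrX:24693873-24996969, plus strand), which extends the RNA primer with DNA. POLA1 had 3.10, 3.29 and 3.14 FPKM in NC and 1.38, 0.928 and 1.22 FPKM in siGDF15. It had the lowest mean FPKM of the 10 genes in each group, though not the fewest counts, and its highest siGDF15 library was still below its lowest NC library. POLA1 fell by 1.33 on the log2 scale (SE 0.12, 95% interval -1.60 to -1.05, edgeR adjusted p = 3.3e-05). Without siGDF15 replicate 2, the shallowest library, its log2 fold change was -1.19. The antisense pseudogene EEF1B2P3 lies within POLA1, had 16.3 and 17.8 FPKM in the NC and siGDF15 means, and did not pass the test (log2 fold change 0.23, edgeR adjusted p = 0.097).

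POLA2 (ENSG00000014138, GRCh38 chr11:65261920-65305589, plus strand) is the regulatory B subunit, which holds POLA1 and has no polymerase activity of its own. The NC libraries had 9.55, 9.88 and 10.5 FPKM, and the siGDF15 libraries had 3.33, 2.69 and 2.69 FPKM. All siGDF15 libraries were far under the NC libraries, and POLA2 fell by 1.67 on the log2 scale, the lowest fold change among the members (SE 0.093, 95% interval -1.89 to -1.46, edgeR adjusted p = 2.3e-06). POLA2 ranked 132nd from the lowest of the 11867 fold changes. It shares exons with an annotated readthrough gene on the same strand, ENSG00000285816, which joins POLA2 to CDC42EP2. Of the 31-base words of the longest POLA2 transcript, 53.4% also occur there and 58.2% occur in any other annotated gene. The readthrough gene was given 881, 982 and 1037 counts in the NC libraries and 1068, 945 and 1146 counts in the siGDF15 libraries, and it was called higher (log2 fold change 0.35, edgeR adjusted p = 0.012). With the counts of both genes added together, an alternative chosen after seeing the data, the log2 fold change of POLA2 was -1.02 (edgeR adjusted p = 4.3e-06). The size of the fall thus differed when all readthrough counts were given to POLA2. The readthrough gene extends to chr11:65326543, past the end of POLA2, and how many of its counts came from shared exons was not determined. The antisense gene ENSG00000287917, at the end of POLA2, had at most 0.255 FPKM.

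PRIM1 (ENSG00000198056, GRCh38 chr12:56731296-56752374, minus strand) is the catalytic subunit of primase, which makes the RNA primer. It was measured at 10.4, 9.58 and 9.93 FPKM in NC and at 3.50, 3.36 and 2.48 FPKM in siGDF15. The groups were far apart, and siGDF15 replicate 3 was the lowest library. PRIM1 fell by 1.58 on the log2 scale (SE 0.13, 95% interval -1.87 to -1.28, edgeR adjusted p = 1.6e-05). The 3′ end of PRIM1 meets NACA on the same strand, a gene of 37.2 FPKM in NC and 44.8 FPKM in siGDF15, which was called higher (log2 fold change 0.37, edgeR adjusted p = 2.5e-04). HSD17B6, on the opposite strand at the start of PRIM1, had at most 0.202 FPKM. The longest PRIM1 transcript shares 36.3% of its words with other annotated genes, and 24.4% with ENSG00000285625, which was not analysed here.

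PRIM2 (ENSG00000146143, GRCh38 chr6:57314805-57646850, plus strand) is the large, iron-sulfur subunit of primase, which passes the primer on to polymerase alpha. Its levels were 5.26, 4.72 and 4.88 FPKM in NC and 2.23, 2.14 and 2.05 FPKM in siGDF15. Each siGDF15 library was below each NC library. PRIM2 fell by 1.10 on the log2 scale, the nearest of the 8 to the fold limit (SE 0.072, 95% interval -1.27 to -0.94, edgeR adjusted p = 5.4e-06). Other annotated genes hold 44.7% of the words of its longest transcript, so the level of PRIM2 is uncertain where the counting could split reads. ENSG00000283453, which was not analysed here, holds 36.6% of the words, and the PRIM2 pseudogene ENSG00000283544 holds 24.7%. The pseudogene was listed at no more than 0.208 FPKM in any library, and ENSG00000266579, within PRIM2 on the same strand, was given at most 4 counts.

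POLD1 (ENSG00000062822, GRCh38 chr19:50384204-50418014, plus strand) is the catalytic subunit of polymerase delta, with polymerase and proofreading activity. It had 20.03, 18.9 and 22.6 FPKM in NC, the highest FPKM but not the most counts among the 10 genes, and 7.35, 7.52 and 7.22 FPKM in siGDF15. The siGDF15 libraries lay close together, with a coefficient of variation of 2.03%. POLD1 fell by 1.37 on the log2 scale (SE 0.075, 95% interval -1.54 to -1.20, edgeR adjusted p = 2.3e-06). No other gene of the table overlapped it on the genome, and 11.4% of the words of its longest transcript occur in ENSG00000142539, which was not analysed here.

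POLD2 (ENSG00000106628, GRCh38 chr7:44114631-44124358, minus strand) is the accessory subunit that binds POLD1 and the remaining subunits. The NC libraries had 14.2, 14.3 and 15.7 FPKM, and the siGDF15 libraries had 9.42, 9.45 and 9.34 FPKM. The groups did not overlap, but siGDF15 kept 63.9% of the NC mean, where the other 8 falling genes kept 29.1 to 43.2%. The log2 fold change was -0.54 (SE 0.054, 95% interval -0.66 to -0.42, edgeR adjusted p = 5.4e-05), and the interval did not reach the fold limit of 1. Its rank of 1680 from the lowest of all tested genes was the least extreme among the members that fell.

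POLD3 (ENSG00000077514, GRCh38 chr11:74493851-74669117, plus strand) carries a PCNA-binding motif and takes part in synthesis during break-induced replication. It was measured at 11.8, 11.5 and 12.0 FPKM in NC and at 4.27, 4.22 and 4.09 FPKM in siGDF15. The spread within each group was small, with coefficients of variation of 2.13% and 2.17%. POLD3 fell by 1.39 on the log2 scale (SE 0.056, 95% interval -1.51 to -1.26, edgeR adjusted p = 7.1e-07). The overlapping gene LIPT2-AS1, annotated on the same strand as POLD3, was under 1 FPKM in every library.

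POLD4 (ENSG00000175482, GRCh38 chr11:67350772-67353595, minus strand), the smallest delta subunit, had 9.28, 11.5 and 7.41 FPKM in NC and 15.7, 16.9 and 16.2 FPKM in siGDF15. NC replicate 2 was the highest and NC replicate 3 the lowest of the control libraries, and all siGDF15 libraries were above both. The rise was 0.90 on the log2 scale (SE 0.14, 95% interval 0.59 to 1.21, edgeR adjusted p = 5.5e-04), which is at percentile 95.9 of all tested genes. Its coefficient of variation in NC was 21.6%, where the other members reached at most 9.39%. Leaving out NC replicate 2 gave 1.06, past the fold limit, and leaving out NC replicate 3 gave 0.76. POLD4 lies within the annotated span of RAD9A on the opposite strand, and RAD9A had 3.47, 4.26 and 3.29 FPKM in NC and 2.09, 2.11 and 2.04 FPKM in siGDF15. NC replicate 2 was thus the highest control library for both genes, while RAD9A was called lower (log2 fold change -0.71, edgeR adjusted p = 5.8e-04). The library kit marks strand, but whether counting used it is not given in the sources used here. The longest POLD4 transcript shares 54.3% of its words with other annotated genes. With ENSG00000256514 on the same strand it shares 42.7%, and at most 34 counts were given to that gene in any library.

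POLE (ENSG00000177084, GRCh38 chr12:132623753-132687376, minus strand) is the catalytic subunit of polymerase epsilon, with polymerase and proofreading activity. The NC libraries had 10.8, 11.0 and 11.0 FPKM, and the siGDF15 libraries had 4.38, 4.14 and 4.05 FPKM. The NC libraries differed by a coefficient of variation of only 1.21%, and the siGDF15 libraries were all well below them. POLE fell by 1.28 on the log2 scale (SE 0.047, 95% interval -1.38 to -1.17, edgeR adjusted p = 5.5e-07), with the smallest standard error among the members. Its longest transcript shared no 31-base word with another annotated gene, which was also so for POLE2, POLA1 and POLD3.

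POLE2 (ENSG00000100479, GRCh38 chr14:49643555-49688422, minus strand) is the B subunit of polymerase epsilon and links the enzyme to the helicase. It had 4.94, 4.88 and 5.49 FPKM in NC and 1.78, 1.27 and 1.63 FPKM in siGDF15. The lowest library, siGDF15 replicate 2, held 220 counts, the smallest count of any member. POLE2 fell by 1.60 on the log2 scale (SE 0.13, 95% interval -1.90 to -1.30, edgeR adjusted p = 1.7e-05). The small RNA gene RNU6ATAC30P, within POLE2 on the opposite strand, was given at most 2 counts.

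Polymerase epsilon has a further pair of small histone-fold subunits, POLE3 and POLE4, which are not members and which bind DNA and histones. POLE3 had 52.2, 44.1 and 52.2 FPKM in NC and 28.2, 26.1 and 25.2 FPKM in siGDF15, and it fell by 0.80 on the log2 scale (SE 0.079, edgeR adjusted p = 5.1e-05). POLE4 had 12.2, 12.5 and 12.0 FPKM in NC and 10.5, 10.2 and 10.6 FPKM in siGDF15. Its FPKM groups did not overlap, yet its log2 fold change of -0.12 did not pass the test (SE 0.055, 95% interval -0.25 to 0.0018, edgeR adjusted p = 0.080). POLE3 is also a subunit of a chromatin remodeling complex, so its transcript does not belong to polymerase epsilon alone.

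**Figure D2:**
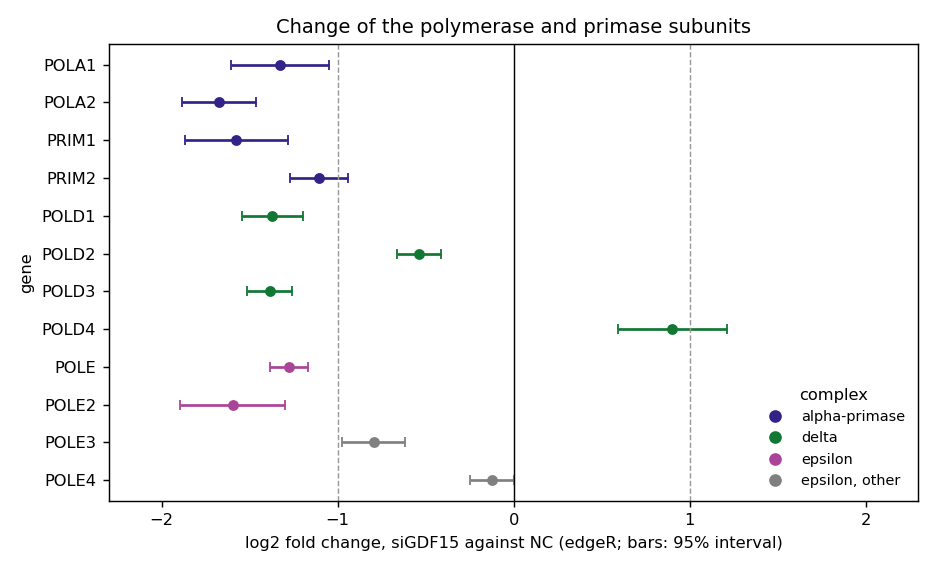
Log2 fold change of each subunit gene, siGDF15 against NC, from edgeR, with bars for the 95% interval and colors for the complex, and with the histone-fold subunits POLE3 and POLE4 in gray. Dashed lines mark log2 fold changes of -1 and 1. The intervals of POLD2 and POLE3 lie between -1 and 0, and the point of POLD4 alone is above 0, at 0.90.

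The order of the levels in FPKM, which depends on the length set for each gene, changed at the top. In NC the mean FPKM fell from POLD1 over POLD2, POLD3 and POLE to PRIM1, POLA2 and POLD4, then POLE2 and PRIM2, with POLA1 last. The ranges of PRIM1 and POLA2, of POLA2 and POLD4, and of POLE2 and PRIM2 overlapped, and the other neighbors did not. In siGDF15 the order was POLD4, POLD2, POLD1, POLD3, POLE, PRIM1, POLA2, PRIM2, POLE2 and POLA1. There the ranges of POLD3 and POLE, of PRIM1 and POLA2, and of POLE2 and POLA1 overlapped. By mean FPKM, POLD4 thus went from the seventh to the highest position of the 10 genes. In counts, however, POLD2 was above POLD4 in every siGDF15 library (5672, 4392 and 5615 against 3598, 2990 and 3719). The NC range of POLD4, 7.41 to 11.5 FPKM, also reached over the ranges of PRIM1 and POLE.

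Summed over its 4 subunit genes, alpha-primase had 28.3, 27.5 and 28.5 FPKM in NC and 10.4, 9.12 and 8.43 FPKM in siGDF15. Polymerase delta had 55.3, 56.2 and 57.7 FPKM in NC and 36.7, 38.1 and 36.9 FPKM in siGDF15. The 2 members of polymerase epsilon had 15.7, 15.9 and 16.5 FPKM in NC and 6.16, 5.42 and 5.68 FPKM in siGDF15. The groups did not overlap in any of these sums. POLD4 made up 16.8, 20.4 and 12.8% of the delta sum in NC and 42.7, 44.4 and 44.0% in siGDF15. These are shares of summed FPKM, which depend on the length set for each gene, and protein was not measured here.

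Ratios within a library compare subunits of the same complex independently of how the library was scaled. Of 7 ratios to the catalytic subunit, the largest difference was in POLD4 to POLD1, which was 0.464, 0.607 and 0.327 in the NC libraries and 2.13, 2.25 and 2.25 in the siGDF15 libraries. POLD4 was thus below POLD1 in every NC library and above it in every siGDF15 library, a difference of 2.29 on the log2 scale (exact permutation p = 0.1, adjusted over the 7 ratios 0.175). The FPKM ratio of POLD2 to POLD1 rose from 0.720 ± 0.0352 (SD, n = 3) to 1.28 ± 0.0184 (SD, n = 3), a difference of 0.83 (exact permutation p = 0.1, adjusted 0.175). It crossed 1 in FPKM only, as POLD2 held more counts than POLD1 in every NC library (8551, 8623 and 9422 against 7436, 6987 and 8372). The difference in the count ratio was also 0.83 (exact permutation p = 0.1). POLD3 to POLD1 was 0.577 ± 0.0415 in NC and 0.569 ± 0.0103 in siGDF15 (SD, n = 3), a difference of -0.02 that was within the spread of the NC libraries (exact permutation p = 0.9, adjusted 0.9).

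In alpha-primase, POLA2 to POLA1 was 3.14 ± 0.185 in NC and 2.50 ± 0.357 in siGDF15 (SD, n = 3), a difference of -0.34 on the log2 scale without overlap (exact permutation p = 0.1, adjusted 0.175). Its direction depended on the readthrough gene. With all counts of that gene added to POLA2, an alternative chosen after seeing the data, the difference in the count ratio was 0.33, again without overlap (exact permutation p = 0.1). How many of these counts came from exons shared with POLA2 was not determined. PRIM1 to POLA1 overlapped between groups (difference -0.24, exact permutation p = 0.4, adjusted 0.467), as did PRIM2 to POLA1 (difference 0.24, exact permutation p = 0.3, adjusted 0.42). In all 3 the highest siGDF15 library was replicate 2, where POLA1 was at its lowest. POLE2 to POLE was 0.466 ± 0.0294 in NC and 0.371 ± 0.0558 in siGDF15 (SD, n = 3), a difference of -0.34 without overlap (exact permutation p = 0.1, adjusted 0.175). No ratio could reach a p under 0.1 with 3 libraries per group, so none could pass a threshold of 0.05.

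**Figure D3:**
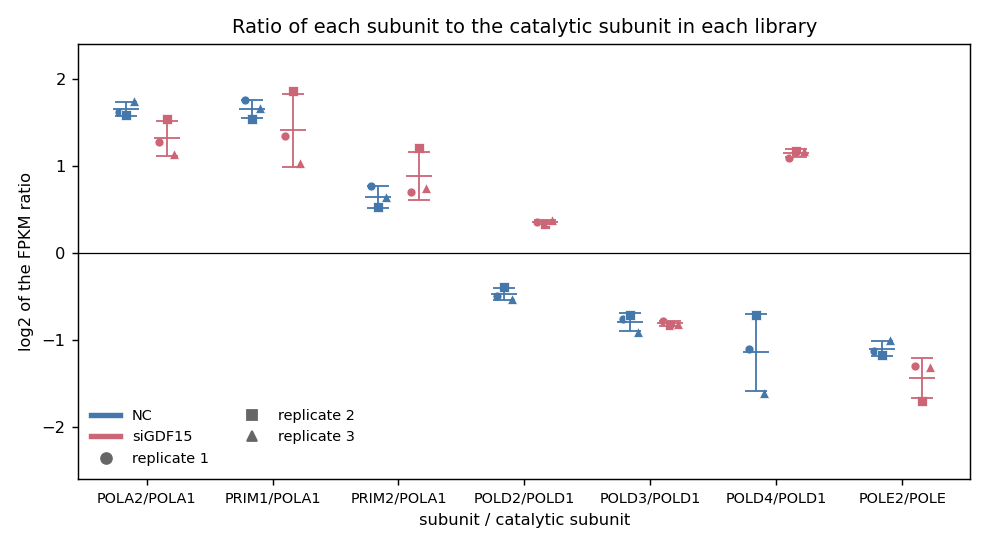
Log2 of the FPKM ratio of each subunit gene to the catalytic subunit gene of its complex in each library, with NC in blue and siGDF15 in red, the mean as the middle line and the SD as bars (n = 3). POLD2/POLD1 and POLD4/POLD1 lie below 0 in every NC library and above 0 in every siGDF15 library, whereas POLD3/POLD1 overlaps between groups. In counts, POLD2 was above POLD1 in every NC library as well.

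The other genes of the replication fork were taken as lists to place the members among them. The helicase formed by the MCM2 to MCM7 proteins, CDC45 and GINS unwinds the template ahead of the polymerases. All 11 of its tested genes fell, all past the fold limit, with a median log2 fold change of -1.38. Examples were GINS4 at -1.44 (edgeR adjusted p = 9.1e-07), MCM3 at -1.30 (8.6e-07) and MCM2 at -1.21 (9.2e-07).

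Among 8 factors that tether polymerases or travel with the fork, 7 fell and 1 rose, with 5 falls past the fold limit and a median of -1.49. CLSPN, a checkpoint mediator at the fork, was at -1.90, MCM10 at -1.75 and TIMELESS, of the fork protection complex, at -1.56. POLDIP2, which binds POLD2 and PCNA, was the gene of this list that rose, from 48.6 ± 2.95 to 59.5 ± 0.849 FPKM (SD, n = 3, log2 fold change 0.40, edgeR adjusted p = 3.8e-04).

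The clamp PCNA and the clamp loaders fell in all 10 cases, 7 of them past the fold limit, with a median of -1.31, and 9 were lower without siGDF15 replicate 1 or 3. PCNA, the processivity ring of polymerase delta, went from 159.9 ± 4.44 to 64.6 ± 4.29 FPKM (SD, n = 3, log2 fold change -1.20, edgeR adjusted p = 1.0e-06). RFC5, of the loader of PCNA, was at -1.27 and CHTF18, of the alternative loader that works with polymerase epsilon, at -1.45. Of 9 tested genes for Okazaki fragment processing and the single-strand binding protein RPA, 8 fell and 1 did not pass the test, with 4 past the fold limit and a median of -0.71. FEN1, the flap nuclease, was at -1.42, RNASEH2A at -1.49 and the ligase LIG1 at -1.21.

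The CST complex, which brings polymerase alpha-primase to telomeres, was taken as a further list. None of its 3 genes was called lower, 1 was called higher, and the median was 0.20. The gene called higher was TEN1, at 0.636, 0.589 and 0.386 FPKM in NC and 8.11, 0.784 and 3.57 FPKM in siGDF15 (log2 fold change 3.01, SE 0.70, edgeR adjusted p = 0.0055). Its siGDF15 libraries were far apart, and replicate 2 was close to the NC libraries. Its NC mean of 0.537 FPKM was under the filter of 1, so it was tested only through the siGDF15 libraries in which it was high, and its call supports nothing about the list.

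DNA polymerases of repair, translesion synthesis and mitochondria, with PRIMPOL and the accessory subunits of these enzymes, gave 6 lower and 2 higher genes of 13 tested, with 2 falls past the fold limit and a median of -0.09. Over all tested genes 31.4% were lower and 30.0% higher, and the 6 became 4 of 13 with same-median scaling, with the replicate block and without NC replicate 1 or 3. The 2 were POLQ, of theta-mediated end joining, at -2.20 (edgeR adjusted p = 1.0e-06), and PRIMPOL, a primase that restarts stalled forks, at -1.53 (8.9e-06). POLH, which bypasses ultraviolet damage, was at -0.78. POLI and POLL rose by 0.40 and 0.32 on the log2 scale (edgeR adjusted p = 0.0016 and 0.0022). An E2F-type word was found in the promoter window of 2 of the 15 genes of this list with a window, POLI and REV3L.

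**Figure D4:**
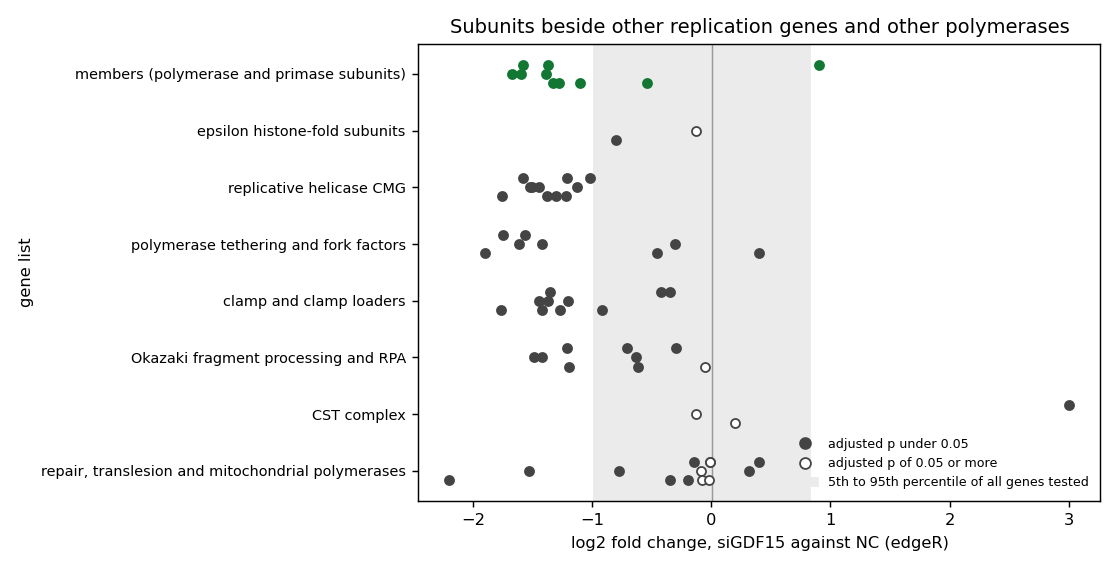
Log2 fold change (siGDF15 against NC, edgeR) of each tested member, in green, and of each tested gene of 7 other lists, with filled points for an adjusted p under 0.05 and open points otherwise. The gray band runs from the 5th to the 95th percentile of all 11867 genes, -0.99 to 0.83. The members other than POLD2 and POLD4 lie to the left of the band, as do all 11 helicase genes.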

How the data were processed

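RNA of 3 siGDF15 and 3 NC samples, grouped by the labels, was sequenced. Per the labels, the processing notes of the submitters name fastp, HISAT2, StringTie and edgeR and the build GRCh38. Versions and strand options are not given in the sources used here. The authors deposited FPKM values and expected counts, which are estimated from coverage. The value 4 made up 15.6% of counts from 1 to 20, so counts overstate the number of read pairs. Counts were tested as deposited in edgeR 4.0.16 (R 4.3.3) with the quasi-likelihood test, TMM normalization, a mean FPKM of at least 1, no covariate and Benjamini-Hochberg adjustment. Standard errors come from the fold change and its F statistic. Total counts ranged from 51738814 to 68025163. Scripts were tested on simulated data. Pairs of libraries within a group were compared by a chi-square of their differences per degree of freedom. It was 7.79 to 17.6 in NC and 3.29 to 4.60 in siGDF15. Because counts overstate read pairs, these values may overstate the departure from sampling noise, which was not settled for siGDF15.

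The text names all 10 members, GDF15, POLE3, POLE4, genes overlapping a member and, per list, up to 3 genes with the smallest adjusted p among those without overlap, plus up to 2 called against the list's main direction. Members, lists and alternatives were chosen with earlier results of these data known. Shared words of 31 bases were counted in GENCODE release 29 transcripts. TSHR and DNTT were not analysed here, and some markers are not reported here. Alternatives used DESeq2 1.42.0 and limma 3.58.1, other scalings, filters, a replicate block and each library left out. Exact permutation tests were two-sided. Figures were drawn with matplotlib 3.10.9.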

Additional observations from a re-analysis of the deposited data

How the results depend on the processing

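Every member kept its direction and its adjusted p under 0.05 in all 17 alternatives, of which 2 (counts divided by 4, and POLA2 with its readthrough gene added), like the same addition in the POLA2/POLA1 ratio, were chosen after seeing the data. Leaving out each library in turn gave 0.76 to 1.06 for POLD4, where the value without NC replicate 2 made 1 member higher past both thresholds instead of 0, and -1.45 to -1.19 for POLA1. On log2 of FPKM plus 1, limma put POLA1 (-0.95) and PRIM2 (-0.92) under the fold limit. The difference of POLD3/POLD1 changed sign without NC replicate 1 (0.00065) and without NC replicate 2 (0.023), in a range of -0.077 to 0.023. That of PRIM1/POLA1 was -0.47 without siGDF15 replicate 2 and -0.052 without siGDF15 replicate 3, and that of PRIM2/POLA1 was 0.080 without siGDF15 replicate 2. That of POLA2/POLA1 turned to 0.33 in count ratios with the readthrough gene added to POLA2. Without TMM, and with limma at either pseudocount, 2 histone-fold subunits of epsilon were lower instead of 1. In the CST complex 2 genes were higher instead of 1 with same-median scaling and with DESeq2, and leaving out a library gave 1 to 2 higher and 0 to 1 lower. Of the repair, translesion and mitochondrial polymerases 4 to 7 were lower over all alternatives (6 as reported), and of the clamp and loaders 9 to 10. Of all genes, 3721 were lower and 3565 higher, 4679 and 2701 without TMM, which moved the median by -0.10, and 3228 and 4074 with same-median scaling. A filter of 0.1 FPKM gave 852 lower and 817 higher genes past both thresholds against 567 and 360. The numbers of the replicates did not pair the samples (correlations 0.03, -0.07 and 0.05), and the replicate block left 9 members lower and 1 higher, 8 and 0 past both thresholds, and 3515 lower and 3391 higher genes in all. The low count of POLE2 in siGDF15 replicate 2 limits the precision of its value, and the cause of these shifts was not tested.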

Other observations

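TERT, the catalytic subunit of telomerase and a polymerase of the comparison list, had a mean level under the filter and is described here after its values were seen. It was measured at 1.41, 1.35 and 1.80 FPKM in NC and at 0.342, 0.497 and 0.390 FPKM in siGDF15, so its libraries did not overlap between groups. RNASEH2B, a subunit of the nuclease that removes RNA from DNA, was also under the filter and was described after its values were seen, at 1.01, 1.05 and 0.980 FPKM in NC and 0.417, 0.422 and 0.386 FPKM in siGDF15. It held 1992, 2075 and 1932 counts in NC and 827, 646 and 765 in siGDF15, so its low FPKM was not a low count. POLN, a polymerase of the comparison list, was listed at no more than 0.125 FPKM in any library.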
